A study of Bos taurus with 37 samples.

Results

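Interferon-stimulated genes are genes that cells switch on when an interferon binds its receptor. Of these, 9 symbols were followed here by name in single bovine blastocysts: IFITM1, IFITM2, IFITM3, ISG15, MX1, MX2, IFI6, RSAD2 and IRF9. They take up 10 of the 22628 rows of the expression table, since IFITM3 occurs in 2 rows. Rows were matched by symbol.

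The table covers 35 blastocysts, each sequenced alone, and 2 libraries of donor cells. IVF blastocysts (IVF-BLs, 6 male and 6 female) came from eggs fertilized in vitro. SCNT blastocysts (SCNT-BLs, 6 male and 6 female) came from enucleated eggs that received an adult ear skin fibroblast. These eggs were activated 4 h after fusion, and the blastocysts were taken 6 to 8 days after nuclear transfer. The paper states that only embryos of 60 to 80 blastomeres were chosen, without naming an origin. Sham NT blastocysts (sham NT-BLs, 6 male and 5 female) came from fertilized eggs that, 18 to 22 h after IVF, lost a polar body and some ooplasm and were then activated with 5 µM ionomycin and with 2.5 mM DMAP for 3.5 h, but kept their own genome. Donor cells are 1 library of male and 1 of female fibroblasts, so they carry no replicate error. The number of animals or cultures behind the fibroblasts is not stated, so all SCNT-BLs of a sex may trace back to 1 fibroblast population. Male and female libraries were sequenced apart, on separate flow cells, so sex and flow cell cannot be told apart. Comparisons of origin were therefore made within a sex.

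In most mammalian cells type I interferons bind a receptor built of IFNAR1 and IFNAR2, and the kinases JAK1 and TYK2 then activate transcription factors, STAT2 among them, which join IRF9 to form the complex that drives interferon-stimulated genes. Ruminant blastocysts are known for interferon tau, a type I interferon that the trophectoderm secretes and by which the mother recognizes the pregnancy. Its best-known effect is the induction of genes such as ISG15, MX1 and MX2 in the uterus. IFITM1, IFITM2 and IFITM3 encode small membrane proteins that hinder viral entry, ISG15 a ubiquitin-like modifier, MX1 and MX2 antiviral GTPases, IFI6 a small organelle membrane protein and RSAD2 the antiviral enzyme viperin.

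Values are FPKM, fragments scaled to the length of the transcript and to the mapped fragments of the library, so that levels of different genes can be set side by side. They summed to 414105 to 601000 in a library. The table holds no read counts, but the spacing of its low values gave relative depths of 0.371 to 1.44 against male IVF-BL replicate 1, with group medians of 0.635 in male and 0.674 in female sham NT-BLs and 0.873 to 1.10 in the other blastocyst groups. Ribosomal protein genes were listed at 0 in 111 of 2835 blastocyst values, so a 0 means only that a gene was listed at 0. Profiles of 2 embryos of a group correlated at r = 0.830 to 0.936. All 8 trophectoderm markers exceeded a mean of 1 FPKM in each blastocyst group except male sham NT-BLs, where 7 did, and in donor cells all 8 fibroblast markers did. In whole embryos, fewer cells of a type and less RNA per cell cannot be told apart.

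IFITM3 was by far the most abundant of the genes. Its first row ranked 174 of 22628 rows by mean FPKM in male IVF-BLs and 93 in female SCNT-BLs, and made up 60.8% to 99.8% of the summed FPKM of the 10 rows in single blastocysts. IRF9 followed with 5.01 ± 4.28 FPKM (mean ± SD over 35 blastocysts), and both genes were above 0 in all 35. MX1 averaged 3.20 ± 9.29 FPKM with a median of 0.0600. RSAD2 averaged 0.877 ± 0.778 FPKM, ISG15 0.216, IFI6 0.0997 and MX2 0.0989 FPKM. IFITM1, IFITM2 and the second row of IFITM3 were listed at 0 in every blastocyst. Near-identical IFITM copies can share reads, so the split of reads between the IFITM rows is uncertain. The later assembly ARS-UCD2.0, used for names only, lists 2 genes with the synonym IFITM3 beside IFITM1 on chromosome 29, and which of them each row holds was not determined.

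In male IVF-BLs, IFITM3 stood at 377, 308, 446, 423, 229 and 451 FPKM in replicates 1 to 6. In male SCNT-BLs it stood at 41.8, 69.4, 35.96, 19.0, 47.3 and 83.2 FPKM. In male sham NT-BLs it stood at 109, 31.3, 223, 112, 118 and 174 FPKM. All male SCNT-BLs and all male sham NT-BLs thus lay below the lowest male IVF-BL, and sham replicate 2 fell within the range of the SCNT-BLs.

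In female IVF-BLs the level of IFITM3 was 773, 610.4, 415, 170.1, 662 and 536 FPKM. Female SCNT-BLs had 279, 355, 579, 763, 908 and 379 FPKM. Female sham NT-BLs had 224, 237, 116, 68.3 and 191 FPKM. The female IVF and SCNT ranges lay over each other, the sham NT-BLs lay below every SCNT-BL, and female IVF-BL replicate 4 alone fell among the sham NT-BLs.

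**Figure D1:**
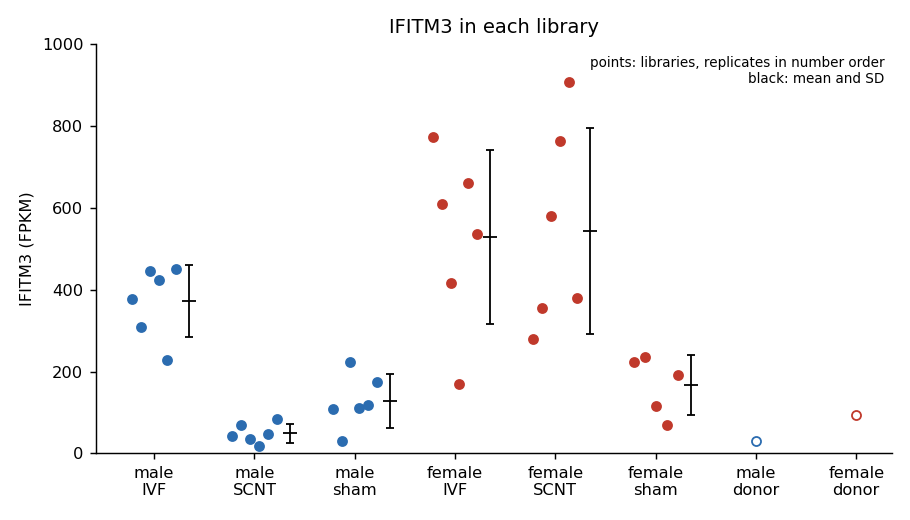
IFITM3 in each library. The vertical axis gives FPKM on a linear scale, filled points are single blastocysts in replicate order (blue male, red female), open points are the single donor libraries, and black bars give the group mean and SD. Male SCNT-BLs (19.0 to 83.2 FPKM) sit below every male IVF-BL (229 to 451 FPKM), while female SCNT-BLs (279 to 908 FPKM) overlap female IVF-BLs (170.1 to 773 FPKM).

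Ordered by mean, IFITM3 had 544 ± 251 FPKM in female SCNT-BLs, 528 ± 212 in female IVF-BLs, 372 ± 88.2 in male IVF-BLs, 167 ± 72.5 in female sham NT-BLs, 128 ± 65.1 in male sham NT-BLs and 49.5 ± 23.3 in male SCNT-BLs (mean ± SD). Of the neighbours in this order, male IVF-BLs and female sham NT-BLs met only through 1 sham NT-BL at 237 FPKM above 1 IVF-BL at 229 FPKM, and male sham NT-BLs and male SCNT-BLs only through sham replicate 2. The other neighbours overlapped more widely. Neighbours of different sex also differ in flow cell, and no difference between them was tested. The female and the male donor library had 93.3 and 29.6 FPKM.

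Origins were compared with limma, on FPKM plus 1 taken to the log2 scale. Every row that averaged over 0.1 FPKM in the groups at hand was tested, p-values were adjusted over all of them by Benjamini-Hochberg, and a row was called at an adjusted p under 0.05. Fold changes are differences of these log2 values, in which low genes appear to change less than they do in FPKM. SCNT and sham NT were set against the same IVF-BLs, so these comparisons share control samples, and each is given on its own.

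In males, SCNT-BLs held less IFITM3 than IVF-BLs: the IVF mean was 7.53 times the SCNT mean. The log2 fold change was -2.99 (SE 0.29, 95% interval -3.61 to -2.38, limma adjusted p = 3.4e-05, lower in 6 of 6 embryos), and the row ranked 8 of 14906 by p. IFITM3 was the only 1 of 5 gene rows tested to be called, and the only 1 whose groups did not overlap, where 6.98% of all rows tested were called and 4.27% did not overlap. RSAD2, viperin, averaged 1.18 FPKM in the SCNT and 0.513 FPKM in the IVF group, with a log2 fold change of 0.56 (95% interval -8.3e-05 to 1.12, limma adjusted p = 0.241).

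Male sham NT-BLs also held less IFITM3 than male IVF-BLs, at means of 128 and 372 FPKM. The log2 fold change was -1.71 (SE 0.36, limma adjusted p = 0.00528), with no overlap. IFITM3 was called alone of 4 gene rows tested, where 12.1% of all rows were called and 6.62% did not overlap. MX1, RSAD2 and IRF9 overlapped.

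Between male SCNT-BLs and male sham NT-BLs, none of 4 gene rows was called by limma, where 11.8% of all rows were called, and 1 had an unadjusted p under 0.05. All 4 overlapped between the groups, as against 6.39% of rows that did not. The row with an unadjusted p under 0.05 was IFITM3, with 49.5 and 128 FPKM and a log2 fold change of -1.28 (95% interval -2.16 to -0.40, limma adjusted p = 0.0574). That difference passed the threshold without male SCNT-BL replicate 6 (limma adjusted p = 0.0417) and without male sham NT-BL replicate 2, the low sham embryo (limma adjusted p = 0.00510). With any other embryo left out it was not called (limma adjusted p up to 0.126).

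In females, SCNT-BLs and IVF-BLs had IFITM3 means of 544 and 528 FPKM. The log2 fold change of 0.06 had a 95% interval of -0.74 to 0.86 (limma adjusted p = 0.964). None of 6 gene rows tested was called by limma, where 0.321% of all rows were called, and 1, MX1, had an unadjusted p under 0.05. All 6 overlapped, where 1.38% of all rows did not.

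Female sham NT-BLs held less IFITM3 than female IVF-BLs, at 167 and 528 FPKM. The log2 fold change was -1.65 (SE 0.39, limma adjusted p = 0.0116). This was the only 1 of 7 gene rows called, where 13.5% of all rows were called, and all 7 overlapped, where 9.02% of all rows did not. Against the same sham NT-BLs, female SCNT-BLs held more IFITM3, with a log2 fold change of 1.71 (SE 0.37, limma adjusted p = 0.00826) and no overlap. There it was the only 1 of 6 gene rows called and the only 1 without overlap, where 11.3% of all rows were called and 8.48% did not overlap.

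The difference between SCNT-BLs and IVF-BLs in IFITM3 was not the same in the male and the female set. The interaction of sex and origin, female minus male, was 3.05 on the log2 scale (SE 0.50, 95% interval 2.03 to 4.07, limma adjusted p = 0.00216), and the row ranked 12 of 15425. It was the only 1 of 6 gene rows called, where 1.91% of all rows were. For sham NT against IVF the interaction in IFITM3 was 0.06 (95% interval -1.11 to 1.24, limma adjusted p = 0.979). There none of 5 gene rows was called by limma, 0 had an unadjusted p under 0.05, and 1.22% of all rows were called. Male and female SCNT-BLs came from different fibroblasts, so sex, donor and flow cell cannot be told apart in the interaction.

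**Figure D2:**
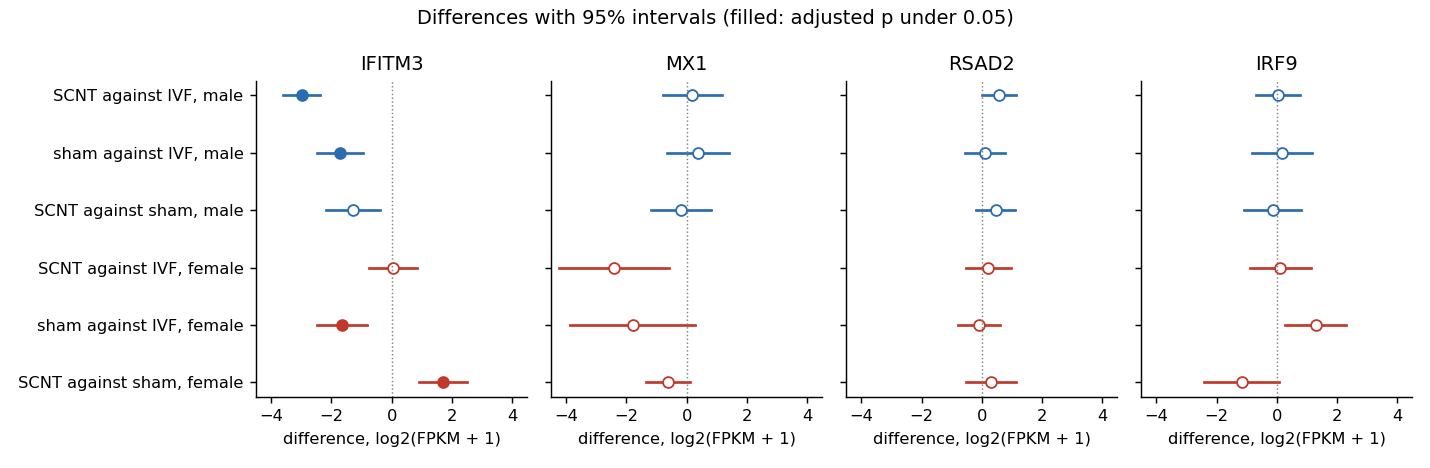
Differences between origins on the log2(FPKM + 1) scale for the 4 genes tested in all 6 within-sex comparisons. Points are limma estimates (blue male, red female), lines their 95% intervals, and filled points have an adjusted p under 0.05. The 4 filled points are all in IFITM3, from -2.99 for male SCNT against IVF to 1.71 for female SCNT against sham NT.

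Markers of other cells were measured in the same embryos. The summed FPKM of 8 fibroblast markers ran from 5.81 to 11.4 in male IVF-BLs, from 2.40 to 8.02 in male SCNT-BLs and from 17.0 to 38.4 in male sham NT-BLs, against 10916 in male donor cells. In female IVF-BLs, SCNT-BLs and sham NT-BLs it ran from 6.62 to 27.7, 5.19 to 17.0 and 7.10 to 17.7 FPKM. Both donor libraries had less IFITM3 than the mean of any IVF group. The male donor library (29.6 FPKM) lay within the range of male SCNT-BLs (19.0 to 83.2 FPKM). The female one (93.3 FPKM) lay below every female SCNT-BL (279 to 908 FPKM). The summed FPKM of 4 inner cell mass markers (NANOG, POU5F1, SOX2 and LIN28B) was 58.6 to 92.1 in male IVF-BLs, 54.5 to 121 FPKM in SCNT-BLs and 16.7 to 66.9 in sham NT-BLs of that sex. In females it was 69.7 to 171 in IVF-BLs, 42.0 to 103 in SCNT-BLs and 35.1 to 67.4 in sham NT-BLs, below every female IVF-BL. The markers did not move alike. POU5F1 averaged 15.6 FPKM in sham NT-BLs and 51.9 in IVF-BLs of males, and 18.1 and 75.3 in females. In the same order SOX2 had 14.8 and 17.6, then 19.3 and 21.9 FPKM. LIN28B had 8.28 and 2.21, then 4.77 and 4.69 FPKM, and NANOG 2.72 and 7.35, then 4.39 and 5.80 FPKM.

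The summed FPKM of 8 trophectoderm markers ranged from 3084 to 7367 in males and from 1771 to 7101 in females. KRT8 (1424 to 2541 FPKM) and KRT18 (2354 to 3408 FPKM, both as group means) dominated these sums. The other markers did not move alike. In male SCNT-BLs and male IVF-BLs, CDX2 (43.3 and 23.4 FPKM) and GATA3 (181 and 106) were higher in SCNT-BLs by mean. TFAP2C (53.5 and 69.6), TEAD4 (27.2 and 54.8), GATA2 (2.48 and 8.16) and DLX3 (1.89 and 4.84) were lower. Of 4 primitive endoderm markers, GATA6 (84.4 to 197 FPKM), PDGFRA (30.9 to 67.6 FPKM) and HNF4A (19.7 to 65.5 FPKM, all as group means) were high in every blastocyst group, while SOX17 was listed at 0 in every SCNT-BL and sham NT-BL. PDGFRA was higher still in the male and female donor library, at 145 and 77.2 FPKM. The list summed to 105 to 244, 224 to 373 and 87.0 to 273 FPKM in male IVF-BLs, SCNT-BLs and sham NT-BLs, and to 139 to 300.2, 166 to 298 and 104 to 329 FPKM in the female groups.

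Of 6 cumulus markers, FSHR averaged 4.35 to 11.8 FPKM across blastocyst groups and was above 0 in every blastocyst, and STAR averaged 0.799 to 3.81 FPKM. PTX3 was listed at 0 in all male IVF-BLs, male SCNT-BLs and female SCNT-BLs, and INHA in all SCNT-BLs and all sham NT-BLs. The list summed to 2.29 to 13.3, 3.71 to 24.8 and 2.66 to 13.4 FPKM in male IVF-BLs, SCNT-BLs and sham NT-BLs, and to 1.85 to 22.2, 6.81 to 11.7 and 6.44 to 25.2 FPKM in the female groups. Of 5 immune cell markers, CD68 was above 0 in every blastocyst, with group means of 11.7 to 23.95 FPKM, and CD79A was listed at 0 in every male blastocyst and every female SCNT-BL. The immune list summed to 5.06 to 47.4 FPKM in male blastocysts and to between 6.09 and 42.9 FPKM in female ones. Over 35 blastocysts, as deviations from the group means, IFITM3 went with the inner cell mass sum at r = 0.48, the fibroblast sum at 0.31, the trophectoderm sum at -0.31, the cumulus sum at -0.48, the primitive endoderm sum at 0.07 and the immune sum at 0.08, values that share libraries and depth and carry no test. The part of these markers in the IFITM3 differences was not tested.

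MX1 was near 0 in most blastocysts and high in a few. Female IVF-BLs had 0.456, 40.2, 38.7, 0.0540, 10.3 and 0.0324 FPKM in replicates 1 to 6. Female SCNT-BLs did not exceed 0.229 FPKM, with 4 of 6 listed at 0. Female sham NT-BLs had 0.277, 0, 0.669, 4.05 and 0 FPKM. Female IVF-BLs 2, 3 and 5 thus stood above all 32 other blastocysts, while the other 3 female IVF-BLs lay in the range of the sham NT-BLs.

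The MX1 means of female IVF-BLs and SCNT-BLs were 15.0 ± 19.4 and 0.0514 ± 0.0926 FPKM, and the log2 fold change of -2.40 (SE 0.86, 95% interval -4.22 to -0.59) had a limma adjusted p of 0.291. Female sham NT against IVF gave -1.79 (limma adjusted p = 0.264). In males MX1 reached 4.46 FPKM in 1 IVF-BL, 3.68 in 1 SCNT-BL and 3.35 in 1 sham NT-BL, with medians of 0.0300, 0.141 and 0.410 FPKM, so that the 3 groups overlapped. The interaction for SCNT against IVF in MX1 was -2.59 (95% interval -4.76 to -0.42, limma adjusted p = 0.229).

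MX2, the sister gene of MX1, was above 0 in 12 of 35 blastocysts. Its highest value, 1.66 FPKM, was in female IVF-BL replicate 2, the embryo with the most MX1. The next was 0.784 FPKM in male SCNT-BL replicate 2, and every male sham NT-BL was listed at 0. It was not called in any of the comparisons in which it was tested.

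ISG15 was listed at 0 in all 18 male blastocysts and in 11 of 17 female ones. The 6 values above 0 were 2.02 and 0.307 FPKM in female IVF-BLs 3 and 4, 0.569 and 0.261 in female SCNT-BLs 2 and 4, and 0.626 and 3.77 in female sham NT-BLs 2 and 4. No origin stood apart, and the log2 fold changes between female origins lay between -0.43 and 0.26 (limma adjusted p = 0.486 to 0.831). Of the genes that attach ISG15 to proteins or remove it, UBA7, the activating enzyme, averaged 0.354 to 1.55 FPKM across blastocyst groups and 35.1 and 39.0 FPKM in the male and female donor library. UBE2L6, the conjugating enzyme, averaged at most 0.0308 FPKM in any blastocyst group.

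IFI6 was above 0 in 9 of 35 blastocysts, at most 0.790 FPKM (female SCNT-BL replicate 3), and was listed at 0 in every male sham NT-BL. It passed the filter in the female sham NT comparisons only. Its mean there was 0.278 FPKM for sham NT, 0.0646 for IVF and 0.132 for SCNT, and it was not called (limma adjusted p = 0.426 against IVF and 0.615 against SCNT). All its values in blastocysts were below 1 FPKM, at unknown read counts, and no difference between origins was detected.

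RSAD2 was low in all groups. Its lowest, median and highest values were 0, 0.412 and 1.28 FPKM in male IVF-BLs, 0.614, 1.27 and 1.64 in male SCNT-BLs and 0, 0.532 and 1.58 in male sham NT-BLs. In females they were 0.0759, 0.789 and 1.49 FPKM in IVF-BLs and 0.112, 0.720 and 3.82 in SCNT-BLs, and sham NT-BLs had 1.43, 0, 0.314, 1.63 and 0.376 FPKM. All groups overlapped, and no comparison was called.

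IRF9, the DNA-binding partner of STAT2, was highest in female sham NT-BLs, at 7.92, 1.81, 18.9, 14.2 and 7.36 FPKM. Female IVF-BLs had 1.84, 4.33, 6.07, 2.10, 1.70 and 2.06 FPKM. All but 1 of the female sham NT-BLs lay above every female IVF-BL, with group means of 10.04 and 3.02 FPKM. The log2 fold change of 1.29 (95% interval 0.28 to 2.29) had a limma adjusted p of 0.0856 and was called (limma adjusted p = 0.0150) without female sham NT-BL replicate 2, the low embryo. It was not called with any other embryo left out (limma adjusted p up to 0.215) or under any of the 7 other settings (up to 0.163).

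Female SCNT-BLs had 0.216 to 9.59 FPKM of IRF9, with a median of 4.13. In males IRF9 averaged 4.08 ± 2.19 FPKM in IVF-BLs, 3.97 ± 1.33 in SCNT-BLs and 5.75 ± 5.91 in sham NT-BLs, where replicate 2 stood at 17.2 FPKM and the others at 1.45 to 6.76. The male log2 fold changes were 0.03 for SCNT against IVF (95% interval -0.71 to 0.77) and 0.17 for sham NT against IVF (-0.83 to 1.17).

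**Figure D3:**
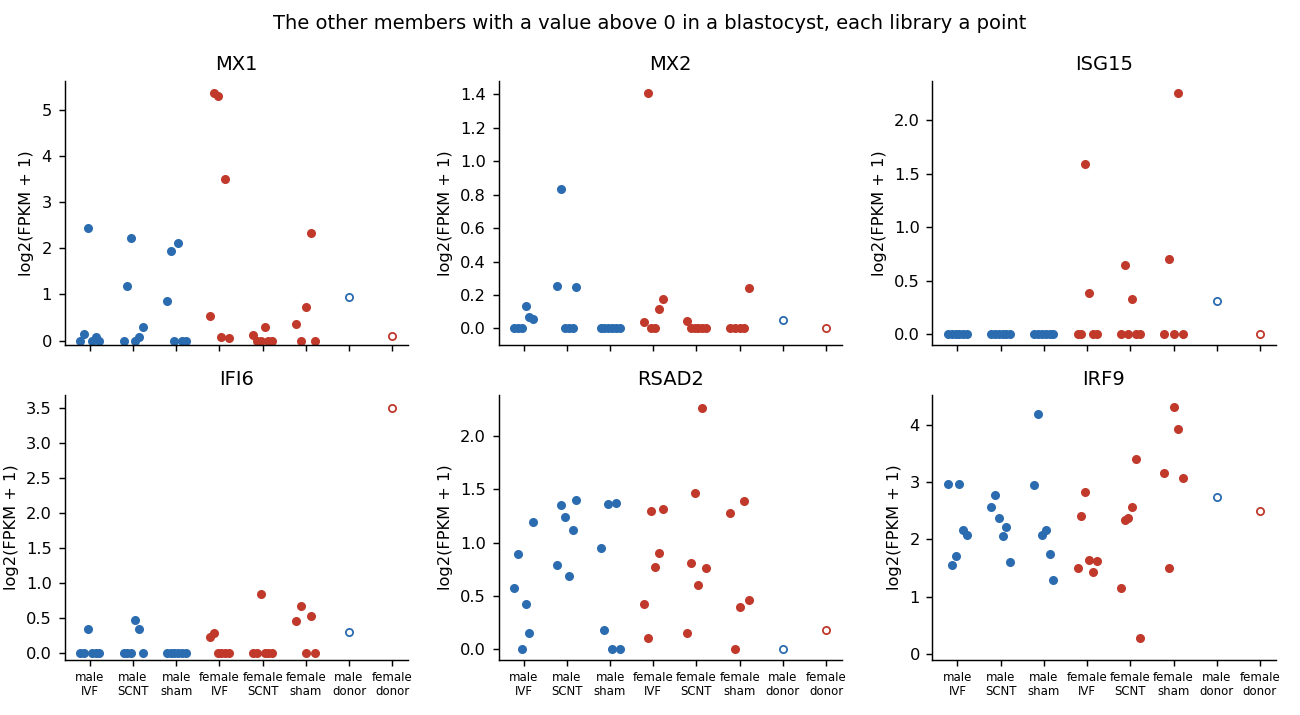
The 6 other genes with a value above 0 in a blastocyst. Each panel gives log2(FPKM + 1) on its own vertical scale, with filled points for single blastocysts (blue male, red female) and open points for the single donor libraries. MX1 stands out in 3 female IVF-BLs, ISG15 is at 0 in all 18 male blastocysts, and IRF9 is above 0 in all 35.

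The donor libraries showed little of most of these genes. IFI6 had 10.4 FPKM in female donor cells and 0.225 FPKM in male ones. IFITM2 had 2.60 and 0.452 FPKM, the only values above 0 for that row, and made it the 1 of 10 gene rows with both donor libraries above every blastocyst, as 10.5% of all rows were. None had both below every blastocyst, where 5.46% of all rows did. IRF9 had 4.60 and 5.65 FPKM, within the range of the blastocysts. MX1 (0.0697 and 0.933), RSAD2 (0.131 and 0), ISG15 (0 and 0.241) and MX2 (0 and 0.0341 FPKM) stayed below 1 FPKM in both.

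Interferon tau was the most abundant of the ligands listed. IFNT, its main row, had 155, 448, 1949, 211, 1235 and 32.3 FPKM in female IVF-BLs, and 38.4, 29.7, 9.28, 45.5 and 76.0 FPKM in female sham NT-BLs. Female SCNT-BLs ran from 21.3 to 222 FPKM. In males IFNT ran from 9.84 to 317 FPKM in IVF-BLs, from 56.5 to 235 in SCNT-BLs and from 9.20 to 434 in sham NT-BLs, and the donor libraries had 0.318 and 0.261 FPKM.

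IFNT was lower in female sham NT-BLs than in female IVF-BLs by a log2 fold change of -3.27 (SE 0.83, limma adjusted p = 0.0161), and so was IFNT2, at 3.29 and 43.4 FPKM (-3.13, SE 0.58, limma adjusted p = 0.00220). These were 2 of the 4 ligand rows tested, where 13.5% of all rows were called. IFNT2 was also higher in female SCNT-BLs than in sham NT-BLs (11.5 and 3.29 FPKM, 1.58, limma adjusted p = 0.0458), a call that, with 1 embryo left out, was kept only without female SCNT-BL replicate 6 or female sham NT-BL replicate 5 (limma adjusted p up to 0.114 otherwise). This call was also lost with no filter on low rows (limma adjusted p = 0.0791) and with all female groups in one fit (0.0697). IFNT was called in that comparison without female SCNT-BL replicate 6 (0.0181), but not with any other embryo left out (limma adjusted p up to 0.254). In males no ligand row was called by limma in any comparison, with unadjusted p under 0.05 for 1 row in SCNT against IVF and for 0 in both others. That row was IFNT (log2 fold change 1.55), which was called without male IVF-BL replicate 5 (limma adjusted p = 0.0304). Leaving out any other embryo did not bring a call (limma adjusted p up to 0.345).

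The relation of each gene to interferon tau was computed over the 35 blastocysts, as deviations from the group means of log2(FPKM + 1), for the 5 genes with a mean over 0.1 FPKM and against the sum of the 3 interferon tau rows. MX1 rose with interferon tau: Pearson's r was 0.53 (two-sided permutation test within groups, 100000 permutations, p = 0.00706, adjusted p = 0.0353 over 5 relations). Spearman's rho was 0.37 (permutation p = 0.0452, adjusted p = 0.113). Without the 2 embryos farthest from the median interferon tau deviation r was 0.45 (permutation p = 0.0184, adjusted p = 0.0919), so the call rests on those embryos. They were female IVF-BL replicate 6 and male sham NT-BL replicate 3, low in interferon tau (40.8 and 9.20 FPKM) and in MX1 (0.0324 and 0 FPKM). The relation was not computed without the embryos highest in MX1.

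By group, r between MX1 and interferon tau was 0.80 in female IVF-BLs, 0.71 in male sham NT-BLs, 0.41 in male IVF-BLs, 0.33 in male SCNT-BLs, -0.06 in female sham NT-BLs and -0.30 in female SCNT-BLs. The female IVF-BLs with the 3 highest sums of interferon tau, 2061, 1298 and 475 FPKM in replicates 3, 5 and 2, were the 3 with MX1 above 10 FPKM. IFITM3 went the other way, with r = -0.32 (permutation p = 0.0942, adjusted p = 0.217) and rho = -0.43 (permutation p = 0.0218, adjusted p = 0.109). Its r was -0.63, -0.61 and -0.75 in male IVF-BLs, SCNT-BLs and sham NT-BLs and -0.01 to 0.19 in the female groups. ISG15 (r = 0.22), RSAD2 (-0.23) and IRF9 (0.24) had adjusted p = 0.217 each (permutation). ISG15 was listed at 0 in every male blastocyst, so its level varied in the female groups only.

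**Figure D4:**
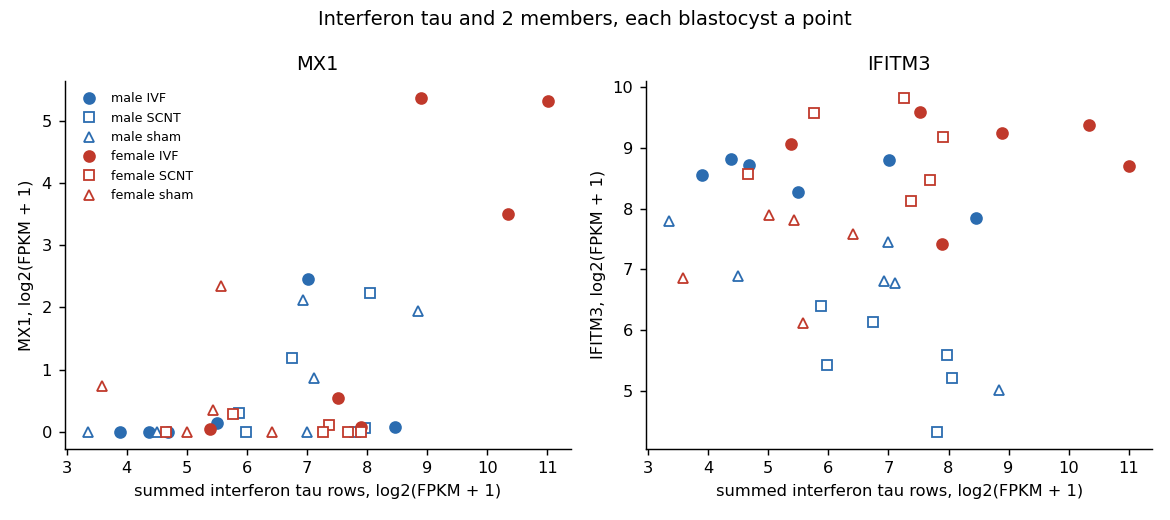
MX1 (left) and IFITM3 (right) against the summed interferon tau rows in each blastocyst, all axes in log2(FPKM + 1). Symbols give the origin and colors the sex. The 3 highest MX1 points are female IVF-BLs with 475 to 2061 FPKM of interferon tau, and IFITM3 shows no rise along the axis.

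The receptor that interferon tau uses was unevenly listed. IFNAR1 averaged 2.91 to 5.98 FPKM across blastocyst groups and 18.8 and 7.32 FPKM in the male and female donor library. IFNAR2 averaged at most 0.0232 FPKM in any blastocyst group, against 15.4 and 18.9 FPKM in the donor libraries. IFNGR2, a subunit of the interferon gamma receptor, averaged 0.135 to 1.31 FPKM in blastocyst groups and 164 and 136 FPKM in donors, whereas JAK1 (26.4 to 38.6 FPKM), TYK2 (5.599 to 9.33 FPKM) and STAT2 (15.0 to 22.2 FPKM) were present in every blastocyst group. The pathway lists other than ligands covered receptors and kinases, transcription factors, sensors, ISG15 conjugation, other interferon-stimulated genes, negative regulators and other IFITM genes. Of their 112 rows, 39 (34.8%) had both donor libraries above every blastocyst, where 10.5% of all rows did.

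In male SCNT-BLs against male IVF-BLs, 3 of 80 pathway rows tested were higher and 1 was lower, with a median log2 fold change of 0.04 beside -0.01 over all rows and 6.98% of all rows called in either direction. TBK1, the kinase that relays nucleic acid sensing, had 5.33, 4.23, 7.72, 3.18, 2.67 and 5.90 FPKM in SCNT-BLs and 0.381 to 1.61 FPKM in IVF-BLs, without overlap (log2 fold change 1.54, SE 0.32, limma adjusted p = 0.0101). NMI, an interferon-induced protein gene, had 5.06 and 0.530 FPKM (1.77, limma adjusted p = 0.0322) and EPSTI1 5.35 and 1.35 FPKM (1.72, limma adjusted p = 0.0445). SHISA5 was lower, at 71.4 and 124 FPKM (-0.82, limma adjusted p = 0.0206). The NMI call was lost without male SCNT-BL replicate 1, 2, 3 or 4 or male IVF-BL replicate 1, 5 or 6 (limma adjusted p up to 0.0682), and the EPSTI1 call without any 1 embryo other than male SCNT-BL replicate 2 and male IVF-BL replicate 5 (up to 0.0982). With no filter on low rows both were lost (0.0664 for NMI and 0.0858 for EPSTI1), and SHISA5 was lost with all male groups in one fit (0.0825).

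Against male sham NT-BLs, male SCNT-BLs had 2 of 81 pathway rows higher and 1 lower, where 11.8% of all rows were called. TBK1 (4.84 and 1.54 FPKM, log2 fold change 1.19, limma adjusted p = 0.0298) and EPSTI1 (5.35 and 1.21 FPKM, 1.67, limma adjusted p = 0.0219) were higher, and BST2, the tetherin gene, was lower (1.15 and 6.30 FPKM, -1.78, limma adjusted p = 0.0422). TBK1 was again without overlap. Its call was lost without male SCNT-BL replicate 1, 3 or 6 or male sham NT-BL replicate 3, 4 or 5 (up to 0.0711), that of EPSTI1 without male SCNT-BL replicate 1 or male sham NT-BL replicate 4 (up to 0.0550), and that of BST2 without any 1 of 8 embryos, all but male SCNT-BL replicate 2 and male sham NT-BL replicates 3, 4 and 5 (up to 0.0933) and with no filter on low rows (0.0856). NMI was called there without male SCNT-BL replicate 5 (0.0228) and with all male groups in one fit (0.0432).

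Male sham NT-BLs differed from male IVF-BLs in 2 of 80 pathway rows, where 12.1% of all rows were called. PSME2, a subunit of the interferon-inducible proteasome activator, was higher (17.3 and 2.73 FPKM, log2 fold change 2.47, limma adjusted p = 0.00529). LY6E was lower (11.3 and 39.3 FPKM, -1.99, limma adjusted p = 0.0368), a call lost without any 1 of 9 embryos, all but male sham NT-BL replicates 1 and 2 and male IVF-BL replicate 5 (up to 0.0816), and with no filter on low rows (0.0799). SHISA5 was called there with quantile normalization (0.0345) and without male sham NT-BL replicate 1 (0.0422).

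In female SCNT-BLs against female IVF-BLs none of 86 pathway rows was called by limma, where 0.321% of all rows were, and 1 higher and 12 lower rows had an unadjusted p under 0.05. The median log2 fold change of the 86 rows was -0.22, beside -0.04 over all rows. IFIH1, the RNA sensor MDA5, averaged 0.0403 FPKM in SCNT-BLs and 1.21 FPKM in IVF-BLs. It was called without female IVF-BL replicate 6, an embryo at 0.0205 FPKM (limma adjusted p = 0.0268), and had limma adjusted p of up to 0.219 without any 1 other embryo. It was also called with all female groups in one fit (0.0363).

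Female sham NT-BLs differed from female IVF-BLs in 9 of 87 pathway rows, 4 higher and 5 lower, where 13.5% of all rows were called, with a median of -0.25 beside -0.09 over all rows. TMEM173, the gene of the DNA-sensing adaptor STING, was higher, with 3.91 and 0.314 FPKM (log2 fold change 1.76, limma adjusted p = 0.00457), as were TRIM21, with 80.2 and 32.8 FPKM (1.29, limma adjusted p = 0.0106), and PSME2, with 11.5 and 2.44 FPKM (1.60, limma adjusted p = 0.0377).

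PLSCR1 (5.71 and 17.8 FPKM, -1.30), TDRD7 (2.93 and 8.55 FPKM, -1.29), the third row of BOLA (0.0547 and 1.86 FPKM, -1.25) and IFIH1 (0.0900 and 1.21 FPKM, -0.94) were among the rows lower in female sham NT-BLs than in IVF-BLs, with limma adjusted p of 0.0335, 0.0391, 0.0269 and 0.0347. Calls of PLSCR1, TDRD7, IFIH1 and PSME2 were lost without any 1 of 6, 8, 9 and 7 of the 11 embryos. They were kept without female IVF-BL replicate 6 in all 4, without female IVF-BL replicate 1 in PLSCR1 and IFIH1, without female IVF-BL replicate 2 and female sham NT-BL replicate 1 in PLSCR1, TDRD7 and PSME2, and without female sham NT-BL replicate 3 in PLSCR1 and replicate 2 in PSME2 (limma adjusted p up to 0.0732, 0.0966, 0.0760 and 0.110 in the order above). BOLA was lost without female IVF-BL replicate 5 or female sham NT-BL replicate 2, 3 or 4 (up to 0.0613).

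Other settings ended some of these calls too. TDRD7 was lost with no filter on low rows, median centring, quantile normalization or all female groups in one fit (limma adjusted p = 0.0549 to 0.0712). PLSCR1 was lost with no filter (0.0546), PSME2 with no filter (0.0682) or all female groups in one fit (0.0503), and IFIH1 with a pseudocount of 0.1 (0.0501) or quantile normalization (0.0642). SHISA5 was called with all female groups in one fit (0.0458) and without female sham NT-BL replicate 1 or 5 (down to 0.0218), and the second row of B2M without female IVF-BL replicate 4 (0.0405).

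Between female SCNT-BLs and female sham NT-BLs, 8 of 80 pathway rows were called, 5 of them higher in SCNT-BLs, where 11.3% of all rows were called. Among these were the second row of B2M (22.8 and 7.81 FPKM, log2 fold change 1.41, limma adjusted p = 0.0144), the third row of BOLA (1.51 and 0.0547 FPKM, 1.15, limma adjusted p = 0.0221), PLSCR1 (11.96 and 5.71 FPKM, 0.97, limma adjusted p = 0.0319) and IRF5 (11.2 and 4.72 FPKM, 1.15, limma adjusted p = 0.0424). B2M and BOLA belong to the class I antigen presentation complex. The first row of B2M and the first and second rows of BOLA were not called in any within-sex comparison. TRIM21 (30.1 and 80.2 FPKM, -1.43, limma adjusted p = 0.00953), TMEM173 (0.780 and 3.91 FPKM, -1.37, limma adjusted p = 0.0421) and PSME2 (2.25 and 11.5 FPKM, -1.94, limma adjusted p = 0.0424) were lower.

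In that comparison the calls of B2M and TRIM21 were kept without any 1 embryo. BOLA was lost without female sham NT-BL replicate 2, 3 or 4 (up to 0.0560). IRF5 and TMEM173 were each lost without any 1 of 9 embryos (limma adjusted p up to 0.0911 and 0.101), kept only without female SCNT-BL replicate 4 or female sham NT-BL replicate 4 in IRF5 and without female SCNT-BL replicate 1 or female sham NT-BL replicate 1 in TMEM173. PLSCR1 and PSME2 were each lost without any 1 of 8 embryos (up to 0.0692 and 0.119), the exceptions being female SCNT-BL replicate 6 and female sham NT-BL replicates 1 and 3 for PLSCR1 and female SCNT-BL replicate 1 and female sham NT-BL replicates 1 and 2 for PSME2. IRF5 was lost with median centring (0.0579) or quantile normalization (0.0595), PLSCR1 with all female groups in one fit (0.0616), and PSME2 and TMEM173 with a pseudocount of 0.1 (0.0550 and 0.0713) or no filter (0.0853 and 0.0736). SHISA5, lower in SCNT-BLs, was called with the filter over 1 FPKM (0.0478), with all female groups in one fit (0.0324) and without female sham NT-BL replicate 1 or 5 (down to 0.0188).

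No pathway row was called by limma in either interaction of sex and origin (85 and 83 rows tested), where 1.91% and 1.22% of all rows were called, and 12 and 11 rows had an unadjusted p under 0.05. Other settings were tried for the rows named above. For SCNT against IVF, TBK1 was called with the filter over 1 FPKM (log2 difference -1.89, limma adjusted p = 0.0349), with all 6 groups in one fit (0.0382) and without female IVF-BL replicate 2 or female SCNT-BL replicate 2 or 6 (0.0408 to 0.0496). NMI was called with that filter (0.0483) and without male SCNT-BL replicate 5 or female IVF-BL replicate 6 (0.0338 and 0.0314), IFIH1 with all 6 groups in one fit (0.0316) and without female IVF-BL replicate 6 (0.0110), and EPSTI1 without male IVF-BL replicate 5 (0.0300).

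For sham NT against IVF, the interaction in SHISA5 was called with the filter over 1 FPKM (log2 difference 1.70, limma adjusted p = 0.0456), quantile normalization (0.0402) or all 6 groups in one fit (0.0217), and without male sham NT-BL replicate 1 or 3 or female sham NT-BL replicate 1 or 5 (0.0157 to 0.0460). IFIH1 was called with all 6 groups in one fit (0.0389) and without female IVF-BL replicate 6 (0.0141), and TMEM173 without male sham NT-BL replicate 2 or female sham NT-BL replicate 1 (0.0499 and 0.0201).

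**Figure D5:**
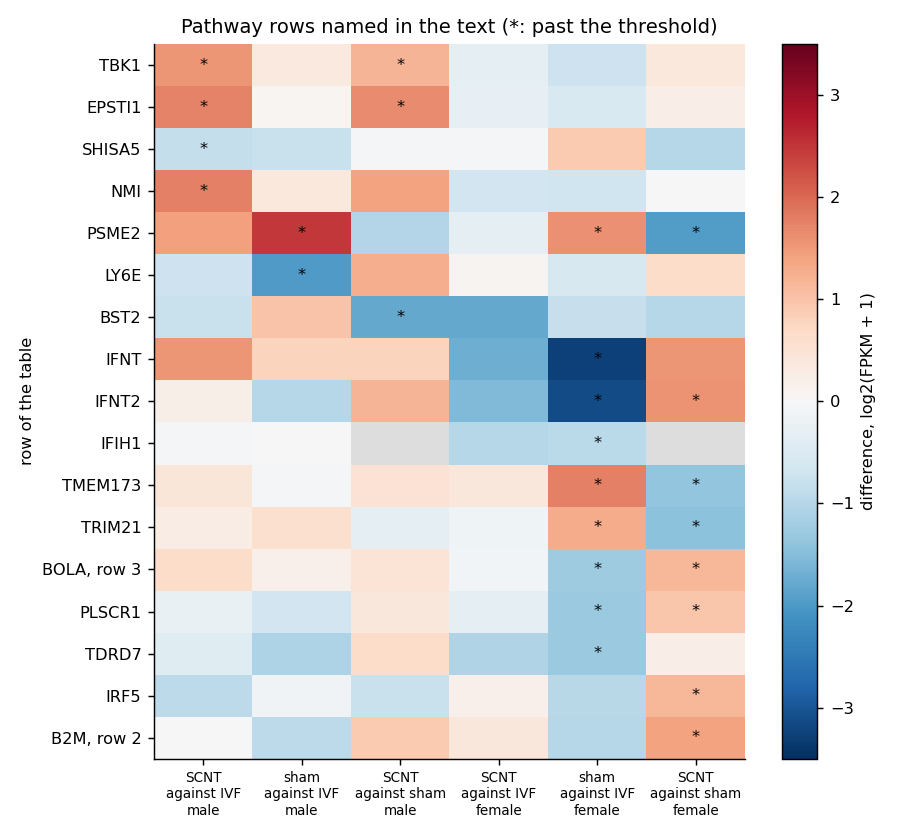
Pathway rows named in the text, each called in at least 1 within-sex comparison, with the comparisons as columns. Color gives the difference in log2(FPKM + 1), red higher and blue lower in the first group named, a star marks an adjusted p under 0.05, and grey cells were not tested. TBK1 and EPSTI1 are starred in both male SCNT columns, and most stars lie in the 2 female columns that involve sham NT-BLs.

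The rows whose pattern was most like a gene's, as Pearson's r of deviations from the group means over 35 blastocysts, were sought among 11154 rows with a mean over 1 FPKM. For IFITM3 these were SMU1 (r = 0.70), UBXN1 (0.65) and CCDC72 (0.64), none of them on the pathway lists. For MX1 they were ERP44 (0.70), KBTBD2 (0.65) and USP18 (0.65), the last being the protease that removes ISG15 from proteins. USP18 had 3.70, 12.5, 78.6, 1.73, 7.95 and 1.42 FPKM in female IVF-BLs, highest in the same 3 embryos as MX1. For IRF9 they were TMEM59L (0.67), C25H16orf5 (0.67) and AP2M1 (0.65). Among the genes themselves r ran from -0.32 (IFITM3 with ISG15) to 0.39 (ISG15 with MX1), and IFITM3 and MX1 had r = -0.08. Both extremes involve ISG15, which was above 0 in 6 of the 35 blastocysts, all of them female. All these r values come from the same libraries, describe them and carry no test.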

How the data were processed

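Single blastocysts and donor fibroblasts were profiled by poly-A RNA-seq after cDNA amplification by pico-profiling. The authors used TopHat to align paired reads to the bovine build UMD 3.1 and Cufflinks to compute FPKM, and they deposited 1 table of FPKM (22628 rows, 37 libraries). Trim Galore and Cuffdiff are named in the submitters' processing notes too. Depth is not part of the table, and FPKM allow no counting interval. Groups came from the sample labels.

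Rows averaging over 0.1 FPKM in the groups compared were tested on log2(FPKM + 1) with limma 3.58.1 (lmFit, eBayes with trend) in R 4.3.3, with Benjamini-Hochberg adjustment over all rows tested and a threshold of 0.05. Relations with interferon tau used within-group permutations (Python 3.11.15, scipy 1.17.1). The script was tested on simulated data. The genes and the lists of pathway genes and markers were chosen with earlier results of these data known. Values are given for every gene of the set in the comparisons, for list genes past the threshold in a within-sex comparison (at most 8 per comparison), for the ligands, and for the 3 rows most like each gene averaging over 1 FPKM. IFIH1 and genes of receptors, kinases, STAT2, ISG15 conjugation and cell type markers were named for their levels after their values were seen. Alternatives were a pseudocount of 0.1, filters over 1 FPKM or none, median centring, quantile normalization, a fit of all groups, the replicate number as a block, and each embryo left out in turn. Replicates are separate embryos. Some single genes counted in the pathway lists are not reported here.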

Additional observations from a re-analysis of the deposited data

Results flagged for a closer look

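The interaction of sex and origin for SCNT against IVF in IFITM3, 3.05 on the log2 scale (limma adjusted p = 0.00216), is the result in which the 2 sexes differ by a test of the difference itself. Male SCNT-BLs lay below every male IVF-BL, and the ranges of female SCNT-BLs and female IVF-BLs overlapped. Sex, donor population and flow cell are confounded there and cannot be told apart.

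By Dixon's test on log2(FPKM + 1), 10 of 37 sets of values of 1 gene in 1 group held an embryo far from the others. Chance passes this test in about 1 in 20 groups of normal values, a rate that does not hold for genes listed at 0 in most embryos, and in 4 of the 10 sets every other embryo was at 0, so that any value above 0 passed. IFITM3 was low in male sham NT-BL replicate 2, at 31.3 FPKM. MX1 was high in male IVF-BL replicate 3, at 4.46 FPKM, and in female SCNT-BL replicate 4, at 0.229 FPKM. ISG15 was high in female IVF-BL replicate 3, at 2.02 FPKM.

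MX2 was high in male SCNT-BL replicate 2 (0.784 FPKM), female IVF-BL replicate 2 (1.66 FPKM), female SCNT-BL replicate 1 (0.0320 FPKM) and female sham NT-BL replicate 5 (0.184 FPKM), and in the last 2 groups every other embryo was listed at 0. IFI6 was high in male IVF-BL replicate 3 (0.269 FPKM) and in female SCNT-BL replicate 3 (0.790 FPKM), where every other embryo of the group was also listed at 0. Except for IFITM3, these embryos stand out at levels of under 5 FPKM, and male IVF-BL replicate 3 stands out in both MX1 and IFI6.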

How the results depend on the processing

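The 5 calls of IFITM3 kept their direction and their side of the threshold under all 7 other settings and without any 1 embryo. The male SCNT against IVF log2 fold change ran from -3.02 to -2.96 and, without 1 embryo, from -3.17 to -2.75. For SCNT against sham NT in males, the count of gene rows called was 0, but 1 with the filter over 1 FPKM (limma adjusted p = 0.0424) or with all groups of the sex in one fit (limma adjusted p = 0.0254), and 0 to 1 without 1 embryo. For sham NT against IVF in females it was 1 to 2 without 1 embryo, the second being IRF9. The relation of MX1 with interferon tau fell from r = 0.53 to 0.45 without the 2 farthest embryos, and from rho = 0.37 to 0.28 (permutation adjusted p = 0.409). With median centring r was 0.52 (permutation adjusted p = 0.0447) and rho 0.26 (0.317), so the ranks alone gave no call. Results changed most where few rows were called: of all rows in female SCNT against IVF, 49 were called, 75 with the filter over 1 FPKM, 1 with no filter and 1 to 57 without 1 embryo, with 1 called without female SCNT-BL replicate 3. The share higher among those called was 65.3%, and 54.3% with a pseudocount of 0.1 and 54.7% with the filter over 1 FPKM. Without 1 embryo, the interactions called 147 to 311 and 110 to 238 rows, fewest without male SCNT-BL replicate 1 and without female sham NT-BL replicate 4. A pseudocount of 0.1 moved the median of all rows in female sham NT against IVF to -0.158.

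The replicate numbers did not pair the embryos: deviations of embryos with the same number correlated at -0.214 to 0.0688. With the number as a replicate block, 652 rows were called in male SCNT against IVF (1040 without it), 20 in female SCNT against IVF (49), 1306 in female sham NT against IVF (2061), 1060 in female SCNT against sham NT (1706), and 94 and 69 in the interactions (295 and 187). The counts of the interferon-stimulated genes called were the same with the block in all 8 comparisons. Of the pathway and ligand calls named, the block ended those of EPSTI1 in male SCNT against IVF (limma adjusted p = 0.0641), TBK1 in male SCNT against sham NT (0.0804), BOLA, PSME2 and TDRD7 in female sham NT against IVF (0.0759, 0.119 and 0.0742), and BOLA, PLSCR1, IRF5, PSME2 and TMEM173 in female SCNT against sham NT (0.0837, 0.111, 0.140, 0.133 and 0.137). It added IFNT in male SCNT against IVF (0.0394) and in the interaction for SCNT against IVF (0.0265), NMI in male SCNT against sham NT (0.0376) and BST2 in female SCNT against sham NT (0.0419).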
